A study of Mus musculus with 2 samples.

Results

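The *Dlx* (distal-less homeobox) and *Msx* (msh homeobox) genes *Dlx1*, *Dlx2*, *Dlx3*, *Dlx5*, *Dlx6*, *Msx1* and *Msx2* are described here in cells of the embryonic mouse coronal suture, the joint between the frontal and parietal bones. These 7 genes were found by symbol among the 31053 genes listed at E15.5 and the 27998 listed at E17.5, and their unique molecular identifiers (UMIs, counted RNA molecules) were summed per cluster and stage. Cells came from wildtype embryos, whose strain is C57/BL6 in the labels and C57BL/6J in the study's methods, and were captured with 10x Genomics Chromium 3′ v2 reagents. For E15.5, 10 sutures were pooled, digested with collagenase II and dispase, and dead cells were removed with a kit. For E17.5, 16 sutures from 2 litters were taken in 3 batches, digested with collagenase IV and sorted by FACS, and the cell barcodes carry a suffix from 1 to 3 that the labels do not tie to a batch. The study prepared the E17.5 libraries separately by batch as a technical control, whereas E15.5 has 1 pool, and each stage is treated here as 1 dataset. Values by suffix show a technical spread between suffixes. Which batch or litter a suffix stands for is not given, and some batches share a litter. No difference was tested, since E15.5 has no second sample and the clusters compared were defined on the same cells. Stage, enzyme, sorting, embryos and counting version differ together and cannot be told apart.

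Both families encode homeodomain transcription factors that pattern the craniofacial skeleton. *Dlx* genes lie in neighbouring pairs that are transcribed towards each other, are known from the branchial arches and the forebrain, and include factors that promote osteoblast differentiation. *Msx* genes are classical targets of BMP signalling, act in proliferating cranial mesenchyme, and are known for their dosage in the skull, since both loss and excess of *Msx2* disturb skull bone growth. Both bind DNA through a helix of the homeodomain that is highly conserved.

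The stretch of 30 bases that encodes this helix is shown for all 7 members to make that difference visible. Capitals mark the 3 positions at which the *Msx* genes share no base with any *Dlx* gene. The sequences are from GENCODE transcripts of GRCm38, written 5′ to 3′.
Dlx1: tggttccagaacaaacgcTccaagTTcaag
Dlx2: tggttccagaaccgccgaTccaagTTcaag
Dlx3: tggttccagaaccgccgcTccaagTTcaaa
Dlx5: tggtttcagaacaaaagaTccaagATcaag
Dlx6: tggtttcagaataagcgcTctaagTTtaag
Msx1: tggttccagaaccgtcgcGctaagGCcaag
Msx2: tggttccagaaccgaaggGctaagGCgaaa
Over the whole homeobox of 180 bases, identity was 66.1% to 82.2% in the 11 pairs within a family and 56.7% to 65.0% in the 10 pairs between families. *Msx1* and *Msx2* were identical at 82.2% of these bases, and *Dlx5* and *Dlx6* at 73.3%. No run of 50 bases was shared between the transcripts of any pair, which bears on whether reads could be split between paralogs.

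On GRCm38, *Dlx5* (chr6:6877805-6882085, minus strand) and *Dlx6* (chr6:6863334-6868568, plus strand) are 9236 bases apart, and *Dlx1* (chr2:71528113-71533981, plus) and *Dlx2* (chr2:71543408-71546754, minus) are 9426 bases apart. *Dlx3* (chr11:95120119-95125296, plus), *Msx1* (chr5:37820485-37824583, minus) and *Msx2* (chr13:53466884-53473074, minus) stand apart from these pairs. *Dlx6* lies wholly within the antisense gene *Dlx6os1*, which both gene lists hold. How strand was used in counting was not given in the sources used here. *Dlx6os1* had 26 UMIs in labelled E15.5 cells and 283 in labelled E17.5 cells, against 81 and 3001 for *Dlx6*.

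*Msx1* and *Msx2* correlated over the clusters (r = 0.725 at E15.5 and 0.883 at E17.5), though their highest clusters differed. The 250 bases upstream of their RefSeq starts are printed because of this correlation (GRCm38.p6, minus strand, chr5:37824586-37824835 for *Msx1* and chr13:53472781-53473030 for *Msx2*). By the GENCODE bounds, chr13:53466884-53473074, the *Msx2* window lies within the gene, so the annotations differ on its start. Capitals mark TAATTA, a core that homeodomain proteins bind in general.
Msx1: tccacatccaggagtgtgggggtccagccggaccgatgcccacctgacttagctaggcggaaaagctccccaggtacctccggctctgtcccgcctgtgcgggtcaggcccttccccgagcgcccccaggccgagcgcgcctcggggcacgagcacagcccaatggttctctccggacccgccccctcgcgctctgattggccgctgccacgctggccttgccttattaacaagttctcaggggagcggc
Msx2: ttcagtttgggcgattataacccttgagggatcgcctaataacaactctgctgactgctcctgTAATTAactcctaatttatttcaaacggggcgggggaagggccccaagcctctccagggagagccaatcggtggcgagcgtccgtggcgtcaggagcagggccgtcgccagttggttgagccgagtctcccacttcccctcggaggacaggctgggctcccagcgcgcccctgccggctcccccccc
The window searched on both strands ran from 250 bases before to 50 bases after the RefSeq start, and 4 members had one (*Dlx1*, *Dlx2*, *Msx1*, *Msx2*). TAATTA was found in the *Msx2* window, where it begins 187 bases before the RefSeq start. It was in 5.30% of the 32817 RefSeq windows of that length. TAATTG, or CAATTA on the other strand, was in none of the 4 and in 8.0% of all windows, and TATAAA was in none of the 4 and in 13.6%. CCAAT was in those of *Dlx2*, *Msx1* and *Msx2* (37.4% of all), and GGGCGG in all 4 (35.6% of all). GC content was 70.0% for *Msx1* and 61.0% for *Msx2*, with a median of 52.7% over all windows.

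The study placed 5335 E15.5 cells found in the matrix (48607817 UMIs, median 8510 per cell) and 6830 E17.5 cells (92585034 UMIs, median 12301.5) in 15 clusters. Of these, 6 are osteogenic (OG1 to OG4, PO1, PO2), 5 ectocranial, above the suture (EC1 to EC4 and the ligament-like LIG), and 4 meningeal, below it (MG1 to MG4). The study took OG1 as the progenitor end, OG2 and OG3 as pre-osteoblasts, OG4 as osteoblasts, and PO1 and PO2 as proliferating. It placed OG2 and OG3 on separate routes to OG4. It named the osteogenic clusters with *Dlx5* and *Dlx6* among other genes and defined all clusters on these cells, so levels by cluster are a description. Levels are given as UMIs per 1000000 UMIs of the cluster (CPM) with exact Poisson 95% intervals, which cover counting error only. The level of *Sp7* over the labels was not alike in both datasets. At E15.5, the osteoblast factor *Sp7* was at 204 CPM in OG4, 58.7 in OG3 and 15.1 in OG1, but at 4.14 in OG2, 1.96 in PO1 and 10.3 in PO2, within the range of the clusters outside the osteogenic ones (0.543 to 12). At E17.5 it was at 91.9 to 318 CPM in all 6 osteogenic clusters and at 110 in EC1. Ratios are therefore also given with OG1, OG3 and OG4 alone, a set added after seeing the data. In OG1 at E15.5, keratin genes of the epidermis were present (*Krt5* 90.5, *Krt14* 114 and *Krt15* 191 CPM), and 29 of 261 cells (11.1%, Clopper-Pearson 95% interval 7.57 to 15.6) held at least 3 UMIs of them. Among those 29 cells were 0 *Dlx5* UMIs, 1 *Msx1* UMI and 1 *Msx2* UMI, and without them OG1 moved from 22.9 to 24.3 CPM for *Dlx5*, from 35.9 to 37.6 for *Msx1* and from 29.1 to 30.4 for *Msx2*. The E15.5 dataset shared 5, 19 and 18 barcode sequences with suffixes 1 to 3. Summed markers of other cell types were present in the labelled clusters. The 8 myeloid markers ran from 18.6 to 60.5 CPM over the clusters at E15.5 and from 106 to 144 at E17.5, against 9003 and 18008 in unlabelled cells called by them. The 6 chondrocyte markers were highest in MG1, at 1111 and 617 CPM against 17415 and 15901 in chondrocyte-like cells. The 5 osteoclast markers were highest in MG2, at 473 and 663 CPM against 4027 and 6210 in osteoclast-like cells, and the 6 endothelial markers in MG4, at 116 and 135 against 3892 and 5463.

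Of the 7 members, 5 passed the filter of 50 UMIs in labelled cells of each dataset (*Dlx3*, *Dlx5*, *Dlx6*, *Msx1*, *Msx2*). *Dlx1* and *Dlx2* did not, with 5 and 1 UMIs of *Dlx1* and 6 and 2 of *Dlx2* in the earlier and the later dataset. The highest of the 15 clusters was the same in both datasets for 5 of 5 members tested, which held for 32% of the 12150 genes tested. *Dlx3* passed the filter at E15.5 through OG4, and the study used *Dlx5* and *Dlx6* to name clusters. This count is therefore no independent result. *Dlx3* was highest in OG4, *Dlx5* and *Dlx6* in OG3, *Msx1* in MG4 and *Msx2* in MG2.

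**Figure D1:**
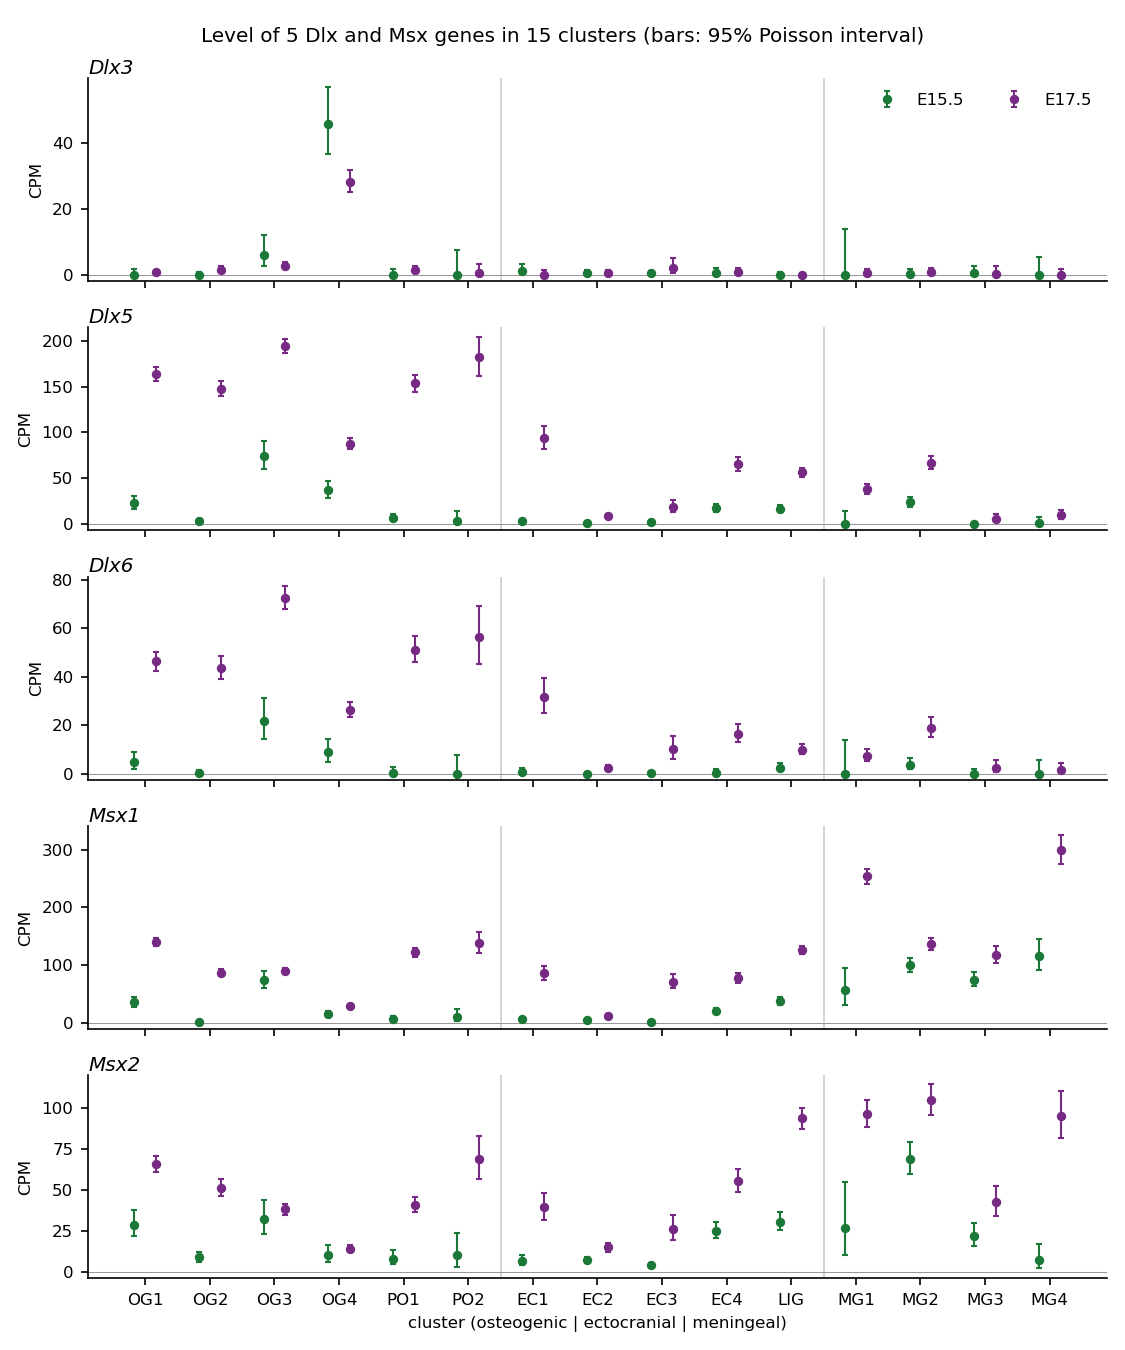
Level (CPM) of 5 genes in the 15 clusters at E15.5 (green) and E17.5 (purple), with vertical lines between the osteogenic, ectocranial and meningeal clusters and bars for exact Poisson 95% intervals. *Dlx3* stood above 7 CPM only in OG4 (45.9 and 28.3), *Dlx5* and *Dlx6* were highest in OG3 in both datasets, and *Msx1* was highest in MG4 (116 and 299).

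*Dlx3*, known from tooth, hair and bone, where it acts late in osteoblast differentiation, marked the osteoblast cluster. In OG4 it reached 45.9 CPM (36.5 to 56.9, 83 UMIs) at E15.5 and 28.3 CPM (25.2 to 31.7, 297 UMIs) at E17.5. The next cluster, OG3, was at 6.18 CPM (8 UMIs) and 2.87 CPM (37 UMIs), which put OG4 7.42-fold (3.59 to 17.7) and 9.85-fold (6.98 to 14.3) higher. Of the *Dlx3* UMIs of labelled cells, OG4 held 83 of 112 in the earlier dataset and 297 of 393 in the later one. In OG1, 0 of 1922906 UMIs were *Dlx3* at E15.5. Against a floor of 3 counts (1.56 CPM) OG4 was at least 29.4-fold higher, while the exact interval of the ratio begins at 23.4. At E17.5 OG4 was 33.8-fold (18.1 to 71.3) higher than OG1, and 51.7-fold by the mean of per-cell fractions. All 3 barcode suffixes showed the level in OG4, at 33.4, 29.1 and 25.6 CPM. By cell, 30.5% of OG4 cells in the earlier dataset and 35.3% in the later one held a *Dlx3* UMI, at median depths of 7351.5 and 19349 UMIs. In myeloid-like cells, which should lack the gene and were chosen by markers from cells without a label, these shares were 0% of 169 cells and 0.229% of 437, at median depths of 8001 and 8948. *Dlx3* was at or below 2.03 CPM in each of the 13 clusters other than OG3 and OG4, and from OG3 on each cluster overlapped the next in the order.

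*Dlx5* and *Dlx6*, the linked pair that promotes osteoblast differentiation, were highest in OG3, a pre-osteoblast cluster. At E15.5, *Dlx5* was at 74.2 CPM (60.1 to 90.6) in OG3, 37.0 (28.7 to 47) in OG4 and 22.9 (16.6 to 30.7) in OG1, and at 3.41 in OG2, 6.86 in PO1 and 4.13 in PO2. At E17.5 it was at 194 (186 to 201) in OG3, 182 (162 to 204) in PO2, 163 (156 to 171) in OG1, 153 in PO1 and 148 in OG2, and at 87.9 (82.4 to 93.8) in OG4. The first 5 of this E17.5 order had intervals that overlapped their neighbours, and in suffix 3 PO2 (197 CPM) was above OG3 (192). *Dlx6* had the same shape at a lower count. It was at 21.6 CPM (14.4 to 31.3) in OG3, 8.84 in OG4 and 4.68 in OG1 at E15.5, where OG2, PO1 and PO2 held 1, 1 and 0 UMIs. At E17.5 it was at 72.6 (68.0 to 77.4) in OG3, 43.6 to 56.2 in OG1, OG2, PO1 and PO2, and 26.5 (23.5 to 29.8) in OG4. OG4 was lower than OG3 in both datasets for both genes and in each suffix, at a ratio of 0.499 (0.360 to 0.689) and 0.454 (0.421 to 0.490) for *Dlx5* and of 0.409 (0.206 to 0.782) and 0.365 (0.318 to 0.418) for *Dlx6*. Against OG1 the datasets differed. The OG4 to OG1 ratio of *Dlx5* was 1.62 (1.09 to 2.42) at E15.5 and 0.538 (0.497 to 0.582) at E17.5, and that of *Dlx6* was 1.89 (0.786 to 4.85) and 0.571 (0.493 to 0.661).

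Summed over the 6 osteogenic clusters and set against all ectocranial and meningeal cells, *Dlx3* was 13.7-fold (8.48 to 23.3) higher at E15.5 and 11.9-fold (7.89 to 18.8) at E17.5. *Dlx5* was 2.9-fold (2.42 to 3.47) and 3.56-fold (3.38 to 3.75) higher, and *Dlx6* 6.71-fold (4.14 to 11.1) and 4.70-fold (4.24 to 5.22). These 3 of the 5 members tested were at least 2-fold higher in both datasets, as were 2.96% of all 12150 genes. In single datasets 7.23% (E15.5) and 4.13% (E17.5) of all genes passed this fold, and the same 3 members did. At 1.5-fold in both datasets, 7.31% of all genes passed and again these 3 members. Since the study used *Dlx5* and *Dlx6* to name these clusters and *Dlx3* passed the filter through OG4, this count is no independent result. With OG1, OG3 and OG4 alone the E15.5 ratios were 31.9 for *Dlx3*, 5.88 for *Dlx5* and 15 for *Dlx6*, and the same 3 members passed the fold, beside 2.31% of all genes. At E17.5 those ratios were 16.4, 3.55 and 4.76. With each cell thinned to 3000 UMIs and counted by whether it held the gene, the ratio over the 6 clusters was 8.40 and 18.6 for *Dlx3* and, at E15.5, 4.07 for *Dlx6*. Of the members tested, 0 were among the 6.3% of genes at least 2-fold lower in osteogenic cells of both datasets.

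Outside the osteogenic clusters, *Dlx5* was not spread evenly. At E15.5 it was at 23.9 CPM (18.7 to 30.2) in MG2, 17.6 in EC4 and 17 in LIG, and at or below 3.25 CPM in the other 6 of these 9 clusters, with 0 UMIs in MG1. At E17.5 it was at 94.1 CPM (82.5 to 107) in EC1, the ectocranial cluster that also held *Sp7*, then at 66.9 in MG2, 65.7 in EC4, 56.8 in LIG and 38.3 in MG1. EC3 followed at 19.3 CPM, and MG4, EC2 and MG3 were lowest, at 10.0, 8.81 and 6.37 CPM. Myeloid-like cells of that dataset, which should lack the gene, were at 9.73 CPM (7.01 to 13.2), so *Dlx5* in MG4, EC2 and MG3 overlapped the background. *Dlx6* went the same way at E17.5, from 31.6 CPM in EC1, 19.0 in MG2 and 16.5 in EC4 down to 2.39 in EC2 and 1.58 in MG4, beside 3.48 in myeloid-like cells. Meningeal over ectocranial cells, the *Dlx5* ratio was 2.08 (1.57 to 2.74) at E15.5 and 0.892 (0.805 to 0.987) at E17.5. The ectocranial sum includes EC1, and the ratio without EC1 was not computed. The share of *Dlx6* in the UMIs of the pair ranged from 2.70% (EC4) to 22.6% (OG3) over the 7 clusters with at least 20 such UMIs at E15.5, and from 13.6% (MG4) to 34.5% (EC3) over 14 clusters at E17.5, so *Dlx6* stayed the smaller count in all of them. Over the 15 clusters, the correlation of *Dlx5* with *Dlx6* in log2(CPM + 1) was r = 0.892 at E15.5 and 0.969 at E17.5, for points that share a dataset and a depth.

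*Msx1* and *Msx2*, known as BMP-responsive factors of undifferentiated mesenchyme, had their highest levels among the labelled clusters in meningeal ones. *Msx1* at E15.5 was at 116 CPM (91.4 to 145) in MG4, 100 (89.0 to 112) in MG2, 75.3 (63.6 to 88.4) in MG3 and 57.3 (32.1 to 94.5) in MG1. In the same dataset it was at 74.2 in OG3, 37.9 in LIG, 35.9 in OG1 and 20.5 in EC4, and at or below 14.9 in the remaining 7 clusters. At E17.5 it was at 299 (275 to 325) in MG4, 254 (240 to 267) in MG1, 136 in MG2 and 118 in MG3. OG1 (141) and PO2 (139) lay above MG2, with intervals that overlapped that of MG2. LIG (126) and PO1 (122) lay between MG2 and MG3. EC2 was lowest at E17.5, at 13.1 CPM, beside 6.95 in myeloid-like cells. MG4 and MG1 each stood apart from the next cluster at E17.5, whereas MG4 and MG2 overlapped at E15.5. Suffix 1 held 0 MG1 cells and 7 MG4 cells, and among its 12 clusters with at least 20 cells the highest was OG1, at 150 CPM. In suffixes 2 and 3, MG4 was at 293 and 318 CPM and MG1 at 265 and 245. Within the meningeal layer, MG4 was above MG3 in both datasets, 1.54-fold (1.15 to 2.04) and 2.54-fold (2.18 to 2.97), whereas MG1 was below MG2 at E15.5 (0.572, 0.316 to 0.959) and above it at E17.5 (1.87, 1.70 to 2.05). Meningeal cells were 8.71-fold (7.58 to 10.0) above ectocranial cells at E15.5 and 2.65-fold (2.50 to 2.81) at E17.5.

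*Msx1* was at 1.49 and 15 CPM in osteoclast-like, 14.4 and 9.47 in endothelial-like and 19.6 and 42.7 in chondrocyte-like cells, each below its levels in MG2, MG4 and MG1, the clusters with most of their markers. *Msx2* in chondrocyte-like cells, at 48 and 127 CPM, was instead above its levels in MG1 (26.7 and 96.3), with overlapping intervals at E15.5. At E17.5 it was also above *Msx2* in MG2 (105), the highest labelled cluster, with overlapping intervals. The part of these cell types in the meningeal levels was not tested.

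Among the 15 clusters, *Msx2* was highest in MG2 in both datasets, at 69.1 CPM (59.9 to 79.2) and 105 (95.8 to 114). MG2 stood alone at E15.5, ahead of OG3 (32.5), LIG (30.8), OG1 (29.1), MG1 (26.7) and EC4 (25.4). At E17.5 its interval overlapped those of MG1 (96.3), MG4 (95.3) and LIG (93.6), and the highest cluster was MG2, LIG and MG4 in suffixes 1, 2 and 3. The meningeal to ectocranial ratio of *Msx2* was 3.80 (3.23 to 4.47) at E15.5 and 1.73 (1.60 to 1.86) at E17.5. Both *Msx* genes were low in EC2 (4.89 and 7.49 CPM of *Msx1* and *Msx2* at E15.5, 13.1 and 15.2 at E17.5), the cluster with the most *Pi16*, a gene of fibroblasts (951 and 1563 CPM). Low levels were not particular to EC2. At E15.5 *Msx1* was lower in EC3 (2.33) and OG2 (2.19), and *Msx2* was lower in EC1 (7.15) and EC3 (4.29). At E17.5 *Msx2* was lower in OG4 (14.4). Over the 15 clusters, *Msx1* and *Msx2* correlated at r = 0.725 and 0.883 on the log2(CPM + 1) scale. The counts of *Msx1* and *Msx2* as a share of those of *Msx1*, *Msx2*, *Dlx5* and *Dlx6* were 90.5% (88.3 to 92.3) in meningeal, 77.5% in ectocranial and 57.7% (54.0 to 61.5) in osteogenic cells at E15.5, and 85.5% (84.5 to 86.5), 69.9% and 40.6% (39.9 to 41.4) at E17.5. OG4 had the lowest share in both, 35.7% and 27.4%.

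**Figure D2:**
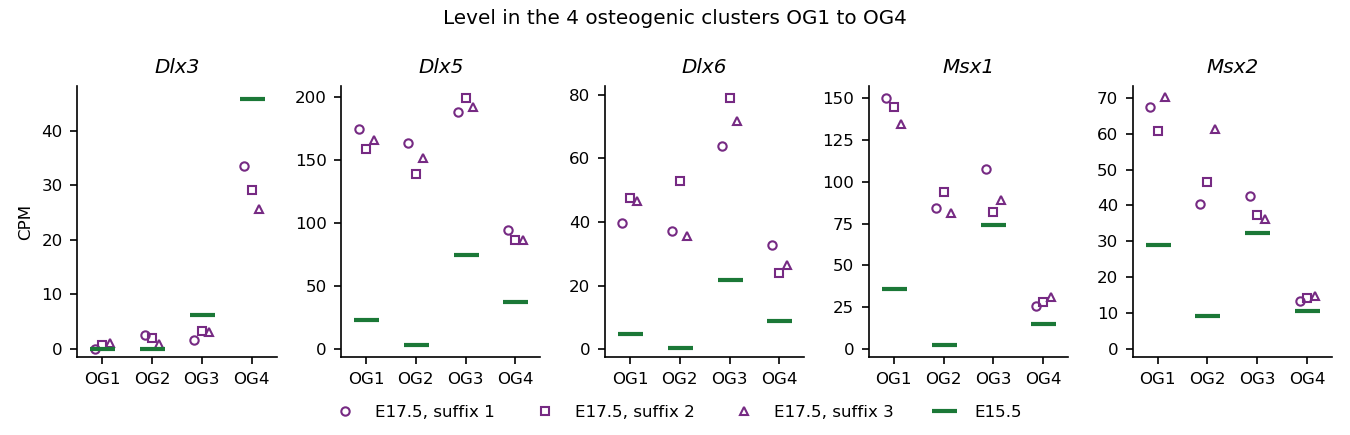
Level (CPM) in OG1 to OG4 for 5 genes, with open symbols for the 3 barcode suffixes at E17.5 and a green bar for E15.5. At E17.5 every suffix had *Msx1* and *Msx2* lowest in OG4 and *Dlx3* highest there.

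Among OG1 to OG4 the *Msx* genes were lowest where *Dlx3* was highest, except *Msx1* and *Msx2* in OG2 at E15.5, which were lower still. In OG4 against OG1, *Msx1* was at 14.9 against 35.9 CPM in the earlier dataset, a ratio of 0.416 (0.256 to 0.657), and at 28.9 against 141 at E17.5, a ratio of 0.205 (0.181 to 0.232). *Msx2* was at 10.5 against 29.1 CPM, a ratio of 0.361 (0.202 to 0.616), and at 14.4 against 65.8, a ratio of 0.219 (0.183 to 0.261). These 2 of 5 members were at least 2-fold lower in OG4 in both datasets, as were 11.6% of all genes, and *Dlx3* was the member at least 2-fold higher, beside 4.28% of all genes. As *Dlx3* passed the filter at E15.5 through OG4, its call is no result. In suffixes 1 to 3, *Msx1* in OG4 was at 25.9, 27.9 and 30.9 CPM and in OG1 at 150, 145 and 135, and *Msx2* in OG4 was at 13.3, 14.3 and 14.9 and in OG1 at 67.3, 60.7 and 70.2. OG4 and OG1 did not overlap across suffixes for either gene. Other summaries lowered the E15.5 ratio of OG4 to OG1, to 0.209 for *Msx1* by the share of thinned cells with a UMI and to 0.206 for *Msx2* by per-cell fractions. OG3 was not the same in both datasets: *Msx1* in OG3 was 2.07 times (1.5 to 2.86) OG1 at E15.5 and 0.645 times (0.598 to 0.696) OG1 at E17.5. For *Msx2* these ratios were 1.11 (0.729 to 1.69) and 0.582 (0.519 to 0.652). In the osteogenic clusters together, *Msx1* was at 0.815 (0.700 to 0.945) and 0.794 (0.763 to 0.826) of its level in all ectocranial and meningeal cells. For *Msx2* the values were 0.898 (0.756 to 1.06) and 0.648 (0.613 to 0.686). As an unweighted mean of clusters, the *Msx1* ratio at E15.5 was 0.518. With OG1, OG3 and OG4 alone, the E15.5 ratios were 1.63 (1.39 to 1.91) for *Msx1* and 1.38 (1.12 to 1.68) for *Msx2*, so the direction at E15.5 turned with the clusters counted, and at E17.5 they were 0.745 and 0.609.

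The share of *Msx2* in the UMIs of the *Msx* pair does not depend on the total of a dataset. It was highest in the ectocranial layer of each dataset as a whole. At E15.5 it was 52.7% (48.9 to 56.5) in ectocranial, 44.4% (39.4 to 49.4) in osteogenic and 32.7% (29.5 to 36.1) in meningeal cells. At E17.5 it was 41.2% (39.5 to 42.9), 31.2% (30.1 to 32.3) and 31.3% (29.9 to 32.8), so the osteogenic and meningeal shares were alike. The E15.5 osteogenic share rested on the clusters counted. OG1, OG3 and OG4 alone held 117 UMIs of *Msx2* and 192 of *Msx1*, against 177 and 222 in all 6 osteogenic clusters. The later meningeal share rested on the suffix, at 46.3%, 28.8% and 29.9% in suffixes 1 to 3, of which the first held 0 MG1 cells, while the osteogenic share was at 30.2%, 29.9% and 32.8%. EC2 was at 60.5% (50.9 to 69.6) and 53.8% (47 to 60.4), an interval that holds 50% in the second case, and MG4 was lowest in both, at 6.10% (2.01 to 13.7) and 24.2% (21.1 to 27.4). OG2 had the highest share at E15.5, 80.9% (66.7 to 90.9) of 47 UMIs, and 37.1% (34.3 to 40.1) at E17.5. *Msx1* held the larger count in 8 of 14 clusters in the earlier dataset and in 14 of 15 in the later one.

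Unlabelled chondrocyte-like cells, called by markers of cartilage matrix, held more *Msx2* than *Msx1*. They numbered 1096 in the earlier and 141 in the later dataset. *Msx2* was at 48 CPM (44.1 to 52.3) and 127 CPM (109 to 148) in them, which is 2.91 times (2.61 to 3.25) and 2.39 times (2.04 to 2.79) the level of all labelled cells. *Msx1* was at 19.6 and 42.7 CPM, 0.876 (0.754 to 1.01) and 0.404 (0.305 to 0.525) times the labelled level. *Msx2* therefore took 71.1% (67.7 to 74.3) and 74.9% (68.7 to 80.4) of the pair, more than in any labelled cluster at E17.5. Pericyte-like cells at E17.5, of which there were 39 with 20 at the limit of the call, held 119 CPM (86.0 to 160) of *Msx1* and 93.9 CPM (65.1 to 131) of *Dlx5*, and *Msx2* took 15.7% (7.02 to 28.6) of the pair there. At E15.5 the 24 pericyte-like cells held 1 *Msx1* and 4 *Dlx5* UMIs, too few to compare.

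Between the datasets, *Dlx5*, *Dlx6*, *Msx1* and *Msx2* were higher at E17.5 in each layer. In osteogenic cells *Dlx5* was at 20.3 and 152 CPM, a ratio of 7.5 (6.59 to 8.57), in ectocranial cells at 5.98 and 44.5 (7.44, 6.37 to 8.73) and in meningeal cells at 12.5 and 39.7 (3.19, 2.49 to 4.12). For *Dlx6* the ratios were 10.5 (8.02 to 13.9), 22.5 (13.4 to 40.8) and 5.26 (2.85 to 10.8). *Msx1* went from 19.0 to 95.1 CPM in osteogenic cells (4.99, 4.36 to 5.73), from 10.5 to 75.6 in ectocranial (7.19, 6.40 to 8.11) and from 91.6 to 200 in meningeal cells (2.19, 1.99 to 2.40). For *Msx2* they were 2.84 (2.44 to 3.33), 4.52 (4.03 to 5.09) and 2.05 (1.79 to 2.35). The same 4 of 5 members were at least 2-fold higher in osteogenic, ectocranial and meningeal cells, beside 5.36%, 5.8% and 7.33% of all genes, and in all 3 layers beside 1.91%. The median ratio of all tested genes was 0.971, 1.02 and 1.06 in the layers. *Dlx3* did not go this way, at 0.906 (0.719 to 1.15) in osteogenic cells and 0.617 (0.482 to 0.797) in OG4. Its ratios in ectocranial (0.939) and meningeal cells (1.85) rested on 19 and 2 UMIs at E15.5 and were 0.516 and 0.249 by the share of thinned cells with a UMI.

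Layer sums weigh each cluster by its UMIs, and these weights differed between the datasets. EC3, at 2.24 and 19.3 CPM of *Dlx5*, held 10723764 UMIs at E15.5 and 1969292 at E17.5. The part of such shifts in the layer ratios was not tested. The ratios between the datasets also depended on the cluster. The interval lay above 1 in 15 of 15 clusters for *Dlx5*, 14 for *Msx1*, 13 for *Msx2* and 12 for *Dlx6*, and the exceptions overlapped 1. Among clusters with at least 3 UMIs in both datasets, *Dlx5* ratios were smallest in OG4 (2.37), OG3 (2.61) and MG2 (2.80) and largest in OG2 (43.2, 25.7 to 79.3), EC1 (28.9) and PO1 (22.4). For *Msx1* they ran from 1.22 (0.992 to 1.52) in OG3 to 39.8 (20.8 to 87.4) in OG2. *Sp7* was higher at E17.5 in each of the 15 clusters, from 4.14 to 172 CPM in OG2, 2.93 to 110 in EC1 and 15.1 to 91.9 in OG1, and how far cells of 1 label were alike in both datasets was not tested. With OG1, OG3 and OG4 alone, the ratios in osteogenic cells were 3.69 (3.21 to 4.26) for *Dlx5*, 4.74 (3.61 to 6.36) for *Dlx6*, 2.33 (2.02 to 2.72) for *Msx1*, 1.74 (1.44 to 2.12) for *Msx2* and 0.538 (0.426 to 0.685) for *Dlx3*. The unlabelled chondrocyte-like cells had E17.5 to E15.5 ratios of 6.30 (3.98 to 9.89) for *Dlx5*, 2.18 (1.60 to 2.94) for *Msx1* and 2.65 (2.22 to 3.16) for *Msx2*. The E15.5 counts were below those in the authors' table in all 5335 cells, and the part of this in the ratios was not tested.

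**Figure D3:**
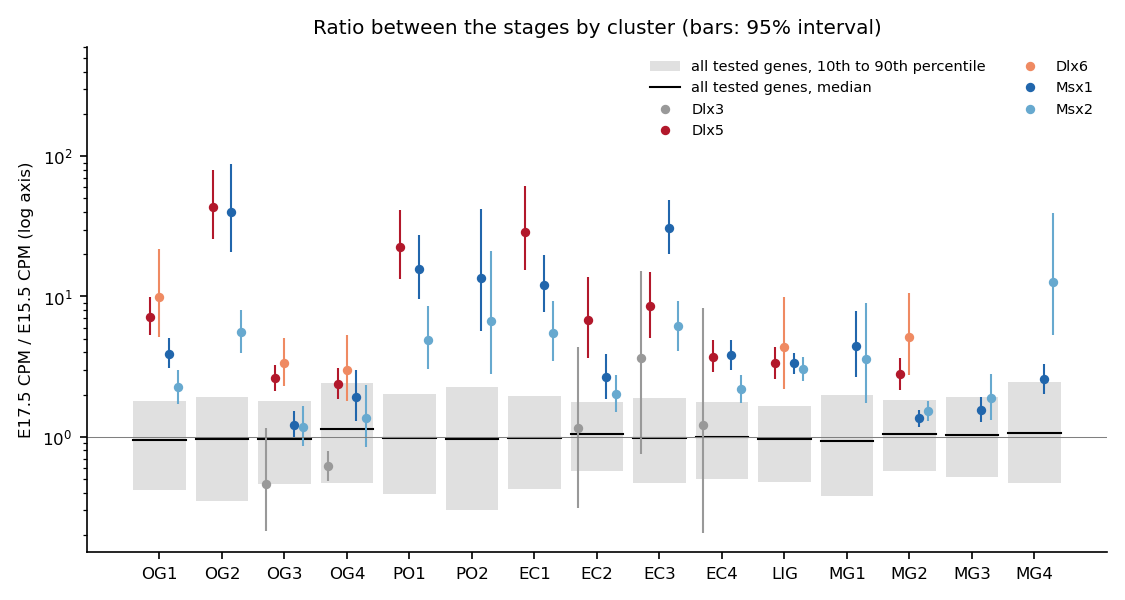
Ratio of the E17.5 to the E15.5 level by cluster on a log axis, for each gene with at least 3 UMIs in both datasets, with 95% intervals, beside the median (black) and the 10th to 90th percentile (grey) of all tested genes. *Dlx5* points lie above the grey band in every cluster shown but OG4, and OG2 has the highest *Dlx5* and *Msx1* ratios (43.2 and 39.8).

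The study's table also gives a cell cycle phase for each cell. Within OG1 at E17.5, *Msx2* was at 76.4 CPM (70.0 to 83.2) in 655 cells called G1 and at 49.4 CPM (42.8 to 56.7) in 302 cells called S, and within OG2 at 65.2 (55.6 to 76.0) in 176 and 37.6 (30.4 to 45.9) in 142. In suffixes 1 to 3, the OG1 levels were 84.3, 73.2 and 77.6 in G1 and 47.2, 41.9 and 56.9 in S, so that G1 was higher in each. OG3 did not show it, at 38.2 and 37.6 CPM. In OG1, *Dlx5* was at 173 (163 to 183) in G1 and 144 (133 to 157) in S, and *Msx1* at 148 (139 to 157) and 121 (111 to 132), so that all 3 genes were lower in S in this cluster at E17.5. By suffix, *Dlx5* in OG1 was at 173, 161 and 184 in G1 and 158, 154 and 132 in S, and *Msx1* at 157, 153 and 141 and at 146, 121 and 115. At E15.5 OG1 did not show this for each gene. *Msx2* was at 36.4 CPM (25.5 to 50.4) in G1 and 20.1 (10.7 to 34.5) in S, *Msx1* at 33.4 and 35.6, and *Dlx5* at 19.2 (11.6 to 30.0) and 31.0 (18.9 to 47.9), and all 3 pairs of intervals overlapped. The 53 E17.5 OG1 cells called G2M did not join S, with *Dlx5* at 176 CPM, *Msx1* at 172 and *Msx2* at 58.4 (44.0 to 76.0). Median depth moved with the call, at 9641 UMIs in G1 and 13174.5 in S, and its part in these values was not tested.

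The genes most like *Msx1* and *Msx2* over the 15 clusters were taken by the lower of both within-dataset correlations of log2(CPM + 1), among 9863 genes. For *Msx1* they were *Eya2*, a transcriptional coactivator (r = 0.904 at E15.5 and 0.874 at E17.5), *Plxna2*, a semaphorin receptor (0.856 and 0.858), and *Edil3*, an integrin ligand (0.837 and 0.863). *Eya2* was highest in MG3 at E15.5 (37.1 CPM) and in MG4 at E17.5 (36.9 CPM). For *Msx2* they were *Synpo*, which encodes an actin-associated protein (0.886 and 0.884), *Sertad4* (0.823 and 0.839) and *Setbp1* (0.800 and 0.821). By Spearman's rho the first 3 for *Msx1* were instead *Foxc1*, *Six2* and *Tpd52l1*, with *Edil3* in place 4, *Eya2* in place 6 and *Plxna2* outside the first 10. For *Msx2*, *Synpo* stayed first, *Setbp1* was in place 3 and *Sertad4* in place 4. The other 3 members fell short of the 500 UMIs set for this, and their nearest genes are given with fewer UMIs behind them. They were *Ifitm5*, *Sgms2* and *Ibsp* for *Dlx3*, 3 genes whose own highest cluster was OG4. As *Dlx3* passed the filter at E15.5 through OG4, this likeness is no independent result. By Spearman's rho its first 3 were *Sgms2*, *Tbrg1* and *Ifitm5*, with *Ibsp* outside the first 10. For *Dlx5* the nearest genes were *Npnt*, *Sox6* and *Tnn*, the same by rho. For *Dlx6* they were *Sox6*, *Dlx5* and *Tnn*, and by rho *Tnn*, *Slc25a13* and *Dlx5*, with *Sox6* in place 4.

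The BMP list holds ligands, receptors, Smads and inhibitors of the pathway upstream of *Msx* genes, and *Id* genes as targets of that pathway. Of the 23 genes of this list, 20 were tested, 1 was at least 2-fold higher in osteogenic cells of both datasets (2.96% of all genes were) and 1 at least 2-fold lower (6.3% of all genes were). The higher one was *Bambi*, a decoy receptor (2.01 and 3.14), and the lower one *Bmp7*, a ligand (0.409 and 0.238), which were also the highest and the lowest of the tested genes at E17.5. The median ratio was 1.05 and 1.06, beside 1.02 and 0.964 for all genes. The target *Id1* was at 1.54 and 1.14, *Id2* at 1.13 and 0.980, *Id3* at 1.09 and 1.19, and the inhibitory *Smad6* at 1.17 and 1.68. *Id4*, named after its values were seen, went the other way, at 0.622 and 0.455. Of 11 osteoblast genes, 10 were at least 2-fold higher in both datasets, among them *Runx2* (3.81 and 2.14) and *Sp7* (16 and 7.45), and at E17.5 *Bglap* had the highest ratio (32.0) and *Col1a1* the lowest (0.643). This list holds genes that named the clusters. Between the datasets, the median ratio in osteogenic cells was 1.01 for the BMP list, 0.567 for the osteoblast list and 4.99 for the 5 members. The osteoblast genes ran from 0.0854 for *Phex* to 4.37 for *Sp7*, with *Runx2* at 1.70, *Alpl* at 3.48 and *Bglap* at 0.0922.

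The remaining family genes were close to undetected. *Dlx1* and *Dlx2*, the pair best known from forebrain neurons and the branchial arches, had 11 UMIs together in labelled E15.5 cells and 3 at E17.5, so a share between them could not be read. Their levels over all labelled cells were 0.103 CPM (0.0334 to 0.240) and 0.0108 for *Dlx1*, and 0.123 and 0.0216 for *Dlx2*. *Dlx4*, the neighbour of *Dlx3*, had 10 and 4 UMIs, *Msx3* 3 and 0, and the antisense *Dlx1as* 0 and 0.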

How the data were processed

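Cells were captured with 10x Genomics Chromium 3′ v2 reagents, and the authors deposited count matrices of UMIs per gene and barcode, unnormalized, with 1 matrix for E15.5 and 1 for E17.5. Alignment to mm10 was with Cell Ranger 2.1.1 by the study's methods, but 3.1.0 is written in the E15.5 matrix header. The submitters' notes also name FastQC 0.11.7, MultiQC 0.9 and Seurat 3.2.0. The authors' table gives the cluster, phase and count of UMIs of each osteogenic and mesenchymal cell. At E17.5 these counts equal the matrix in all 6830 cells, while at E15.5 the matrix is lower in all 5335 (median 8510 against 11513), and 5 labelled cells were not in it. A list of barcodes without values was not used.

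The 7 members and all gene lists were chosen with earlier results of these data known. UMIs were summed per cluster and dataset over the cluster's total. Poisson, Clopper-Pearson (shares) and conditional (ratios) intervals are exact at 95% and cover counting error only. Labelled cells outside the study's filters (1000 UMIs, 1000 genes, 7.5% mitochondrial, 3% Hbb and Hba UMIs), 93 at E15.5, were kept, as were doublets. Scrublet by its own setting called 392 of 8210 E15.5 cells and 5, 24 and 4 cells in the E17.5 suffixes, so an alternative left out the cells scoring from the 94th percentile up (495, 123, 219 and 234). Genes in both lists with at least 50 UMIs in labelled cells of each dataset were set against a fold of 2. Unlabelled cells within the filters (2875 and 1937) were given a class when at least 60% of its markers had a UMI and at most 1 marker of another list did. Genes named outside the members are the other family genes, those of the BMP and osteoblast lists with the highest and lowest E17.5 ratio, *Id1*, *Id2*, *Id3*, *Smad6*, *Runx2*, *Sp7*, label and cell type markers, and the 3 genes most like a member (at least 200 UMIs in each dataset, members with at least 500). Genes that lead under an alternative and *Id4* were named after their values were seen, as were the osteoblast genes given for their ratio between the stages.

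Alternatives were per-cell means, other denominators, shares of cells after thinning to 3000 UMIs (160 shallower E15.5 cells left out), cell filters, doublets left out, each suffix left out, a fold of 1.5, minimums of 20 and 200 UMIs, osteogenic ratios without PO1 and PO2 or as unweighted means, and Spearman's rho. Osteogenic ratios without OG2, PO1 and PO2, the *Msx* share of *Msx* and *Dlx* UMIs, cells with keratin UMIs left out, unlabelled classes and the likeness of *Dlx3*, *Dlx5* and *Dlx6* were added after seeing the data. The interval, ratio and thinning code was tested on simulated data. The software was scanpy 1.11.5, pandas 2.3.3, matplotlib 3.10.9, scipy 1.17.1 and numpy 2.4.6 under Python 3.11.15.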

Additional observations from a re-analysis of the deposited data

Results flagged for a closer look

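Several ratios lay on opposite sides of 1 in the E15.5 and E17.5 datasets, and none of these differences was tested, since E15.5 has 1 sample without replicates. *Dlx5* in OG4 over OG1 was at 1.62 at E15.5 and 0.538 at E17.5. *Dlx5* in meningeal over ectocranial cells was at 2.08 and 0.892. The E17.5 ectocranial sum includes EC1, the cluster that also held *Sp7*, at 94.1 CPM of *Dlx5*. The ratio without EC1 was not computed. *Msx1* in OG1, OG3 and OG4 over ectocranial and meningeal cells was at 1.63 and 0.745, and *Msx2* there at 1.38 and 0.609. *Msx1* in OG3 over OG1 was at 2.07 and 0.645. *Msx1* in MG1 over MG2 was at 0.572 and 1.87, with 28 MG1 cells at E15.5. *Msx2* in MG4 over MG3 was at 0.336 and 2.24, with 5 *Msx2* UMIs in MG4 at E15.5.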

How the results depend on the processing

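No paired analysis was possible because E15.5 has 1 sample, so that the 3 E17.5 suffixes have no counterpart. Clusters within a suffix are given side by side and were not tested, having been defined on these cells. Under the alternatives run, the number of highest clusters, ratios and members that kept their side changed by less than 1.5 times, and 3 members passed the fold in each. The share of genes at least 1.5-fold higher in osteogenic cells of both datasets was 7.31%, against 2.96% at 2-fold. With OG1, OG3 and OG4 alone, *Msx1* in osteogenic over other cells at E15.5 turned from 0.815 to 1.63. Of the single ratios under alternatives, 258 stayed within the interval of the reported value, 35 left it and 1 reversed. A reversal was counted only where the reported interval did not hold 1. *Msx2* in osteogenic over other cells at E15.5, from 0.898 to 1.38 with OG1, OG3 and OG4 alone, was therefore not counted as one. Moves of over 1.5 times came from thinned shares (6 of 34 values, the largest *Dlx3* between the stages in meningeal cells, 1.85 to 0.249), per-cell fractions (2 of 34), unweighted means (1 of 10) and OG1, OG3 and OG4 alone (5 of 10). *Dlx3* in OG4 over an OG1 with 0 UMIs at E15.5 was not recomputed. Of the 10 highest clusters, 7 stayed highest by the proportion of cells with the gene once cells were thinned, and 9 without suffix 1. Thinned to 3000 UMIs, *Dlx6* was detected more often in cells with *Dlx5* than without in 1 of 4 E15.5 and 10 of 11 E17.5 clusters, and *Msx2* in cells with *Msx1* in 5 of 6 and 14 of 15. This share, 83.3% in all, was 58.8% to 67.7% when a suffix was left out, so nothing was read from it. Depth limits *Dlx6* at E15.5, with 81 UMIs in labelled cells.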
